A study of Mus musculus with 16 samples.

Results

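The genes examined here encode the enzymes that build triglyceride in the liver, and they were followed in RNA from mice on a high-fat diet (HFD) with and without hepatic Cpt1a. The 10 members were Gpam, Agpat2, Agpat3, Lpin1, Lpin2, Lpin3, Dgat1, Dgat2, Mogat1 and Mogat2, each taken by its exact symbol from the 25803 genes of the deposited tables. All mice were males fed HFD for 12 weeks, and bulk RNA sequencing was made of 16 livers, 4 in each of 4 groups. The fasted control and fasted LKO groups were killed after a fast of 16 h, and the refed control and refed LKO groups had 6 h of food after the same fast. Refed and fasted mice thus differ both in food and in time since the fast began, and these cannot be told apart. LKO stands for a knockout of Cpt1a in the liver, and the controls are called control in the sample labels and WT in the series' description. How the knockout was made, the strain and the age of the mice are not given in the sources used here, so the cells in which the gene was deleted are known only as far as the word liver says.

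Triglyceride is made along the glycerol-3-phosphate pathway, in which fatty acids are placed one after another on a glycerol backbone. A glycerol-3-phosphate acyltransferase (Gpam) makes lysophosphatidic acid, a 1-acylglycerol-3-phosphate acyltransferase (Agpat2, Agpat3) makes phosphatidic acid, a lipin (Lpin1, Lpin2, Lpin3) removes the phosphate to give diacylglycerol, and a diacylglycerol acyltransferase (Dgat1, Dgat2) adds the last fatty acid. Monoacylglycerol acyltransferases (Mogat1, Mogat2) reach diacylglycerol by a shorter route that is best known from the intestine. Cpt1a encodes the carnitine palmitoyltransferase that lets long-chain fatty acids into mitochondria, so it stands at the other main fate of a fatty acid in a hepatocyte.

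Libraries held 14.72 to 24.62 M counts, and their values are listed in the order of the library names, S40 to S43 for fasted control, S44 to S47 for fasted LKO, S48 to S51 for refed control and S52 to S55 for refed LKO livers. Levels are given as CPM, the counts per M (mega) counts of the scaled library total, and a member is called changed where its adjusted p-value in edgeR's quasi-likelihood test, adjusted over the 14488 genes tested, was under 0.05. The targeted gene followed the labels: Cpt1a was at 487 ± 83.2 CPM in fasted control and 101 ± 17.3 CPM in fasted LKO livers, and at 457 ± 137 CPM in the refed controls and 54.2 ± 16.6 CPM in refed LKO livers (SD, n = 4; exact two-sided permutation p = 0.0286 in each state, the smallest that 4 against 4 libraries allow). Nothing in the labels says more of the numbered samples than that each is a liver of its group, so p-values measure the spread between these samples. In bulk liver, fewer cells of a type and less RNA per cell cannot be told apart.

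Of the 10 members, 9 passed the filter on low counts and were tested. Dgat2 and Agpat2 fell in fasted LKO livers, Agpat3 and Dgat1 fell on refeeding in both genotypes, and on refeeding in LKO livers Lpin2 fell and Dgat2 rose. Gpam, Lpin1, Lpin3 and Mogat1 were called in no comparison, and Mogat2 was too low to test.

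Counted by comparison, 2 of 9 members tested were called between fasted LKO and fasted control livers, both lower, where 12.2% of all genes tested were called and 6.48% were called lower. Between refed LKO and refed control livers 0 of 9 were called by edgeR, 3 had an unadjusted p under 0.05 (33.3%, against 18.4% of all genes), and DESeq2 called 2 (Agpat2 lower, Agpat3 higher) and limma-voom 0, where edgeR called 3.63% of all genes (2.28% higher and 1.35% lower). On refeeding, 2 of 9 were called in control livers, both lower, where 15.4% of all genes passed (7.79% upward and 7.65% downward). In LKO livers 4 of 9 were called, 1 higher and 3 lower, where 18.1% of all genes were (9.28% upward and 8.78% downward). The difference of the 2 genotype effects was called for 0 of 9 members by edgeR, DESeq2 and limma-voom, with 1 member (Dgat2) at an unadjusted edgeR p under 0.05 (11.1%, against 16.5% of all genes), where 0.538% of all genes were called. Each group enters 2 of the 4 comparisons between groups, so calls in comparisons that share a group are not independent of each other. Members whose 2 groups did not overlap numbered 3 of 9 (background 16.9%), 2 of 9 (11.7%), 2 of 9 (20.4%) and 3 of 9 (20.6%) in the fasted genotype, refed genotype, control refeeding and LKO refeeding comparisons. The median log2 fold change of the members was -0.02, -0.26, -0.29 and -0.14 in these comparisons, against 0.02, -0.01, 0.01 and -0.02 over all genes tested. With 9 members, each member median is the value of 1 gene, namely Lpin3, Lpin1, Dgat1 and Lpin3 in that order. A shift of the members as a set was not tested.

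**Figure D1:**
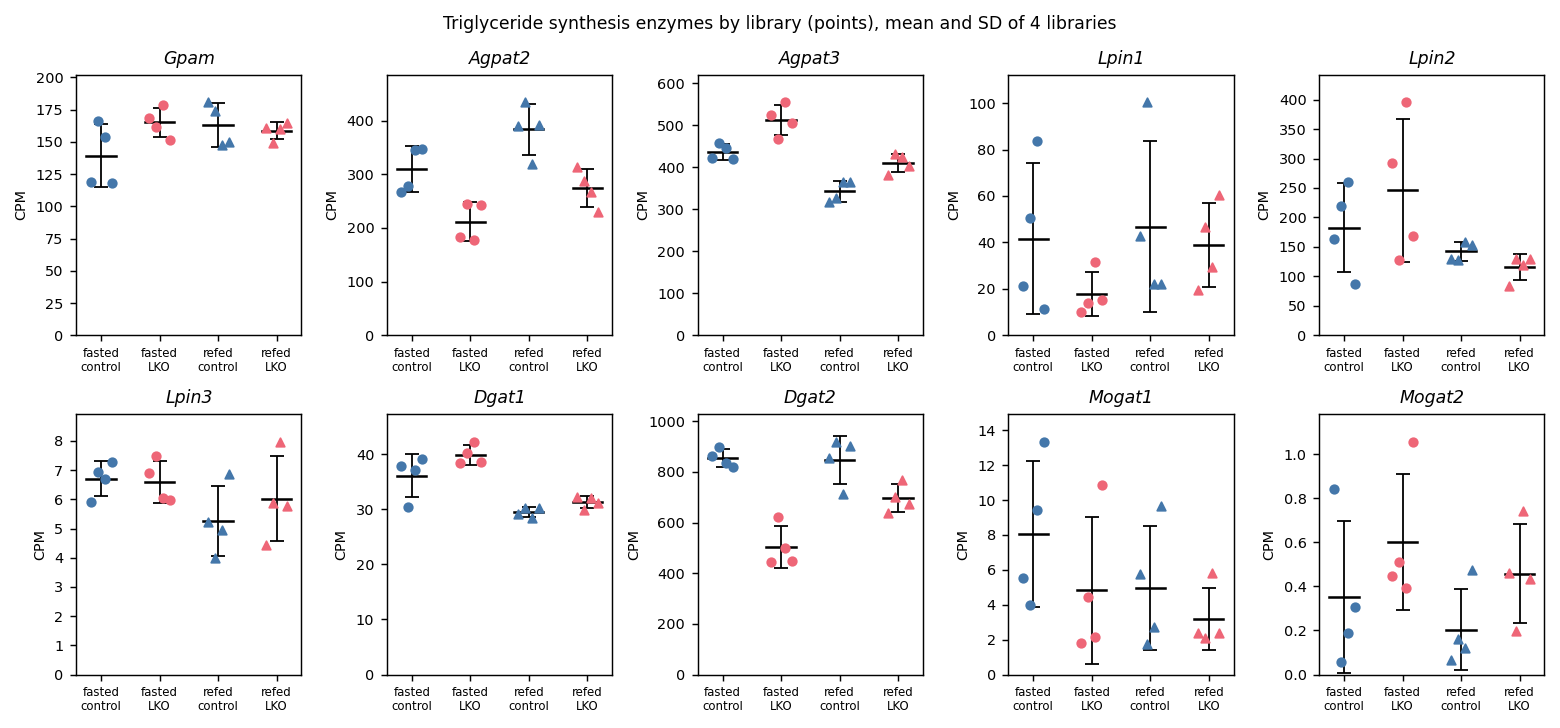
Each panel plots 1 member's level in CPM (vertical axis, from 0, a scale of its own per panel) in the 4 groups; points are the 4 libraries of a group, and the bar and whisker give the mean and SD. Fasted LKO points of Dgat2 sit between 444 and 623 CPM, below all 12 other libraries, while the points of Lpin1, Lpin2 in fasted livers and Mogat1 are spread widely within their groups.

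**Figure D2:**
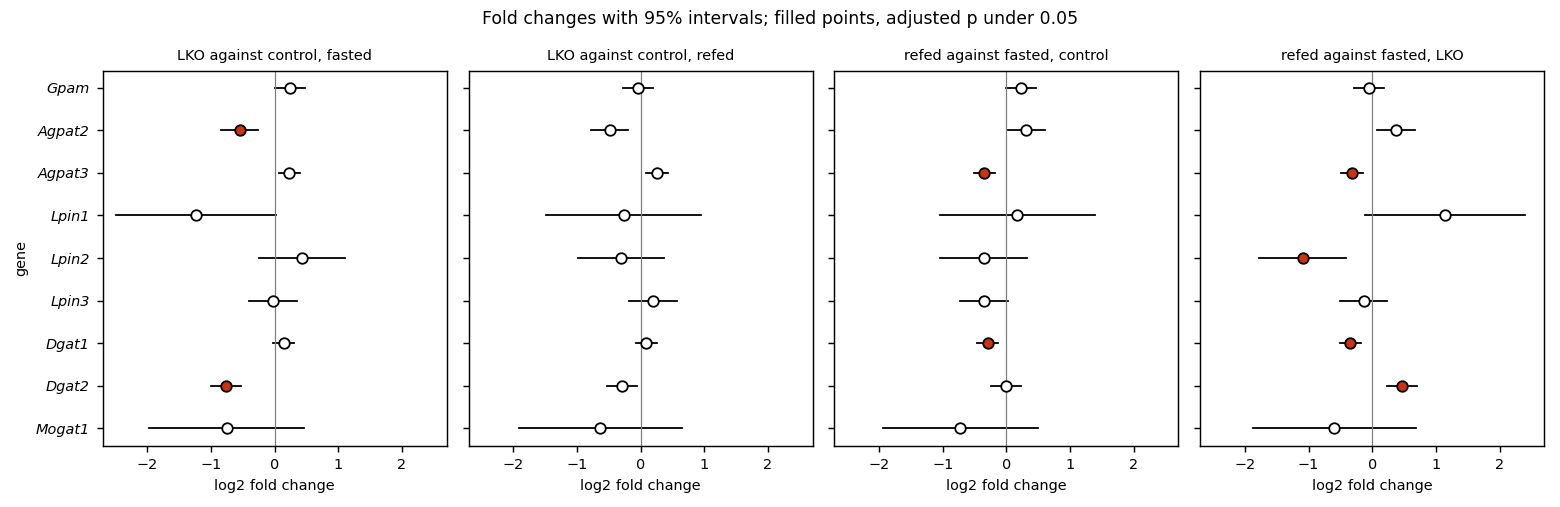
Log2 fold changes (horizontal axes) of the 9 tested members with 95% intervals, 1 panel per comparison; filled points are those with an edgeR adjusted p under 0.05. Dgat2 at -0.76 and Agpat2 at -0.55 are filled in the fasted genotype panel and none in the refed genotype panel, and the intervals of Lpin1 and Mogat1 are the widest.

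Marker genes were read beside these results. Of 8 hepatocyte genes, 3 fell in fasted LKO livers: Ahsg from 7027 to 4966 CPM, Fgb from 3314 to 2324 CPM and Ttr from 6920.4 to 4601 CPM (edgeR adjusted p = 0.00908, 0.0236 and 0.0181). The summed level of the 8 ran from 77484 to 84959 CPM in fasted control and from 63307 to 72787 CPM in fasted LKO libraries. After refeeding the sums were 74074 to 94736 CPM in control and 65473 to 80697 CPM in LKO libraries, and none of the 8 passed edgeR's test between refed genotypes. In the fasted comparison the hepatocyte sum was thus lower in LKO livers, as were Dgat2 and Agpat2, and its part in those results was not tested. On refeeding, Fgb fell in control livers (to 2328 CPM), and Lipe of the adipocyte list fell in control (28.6 to 16.2 CPM) and LKO livers (29.5 to 18.9 CPM; edgeR adjusted p = 0.0208, 0.0109 and 0.0297). Their part in the falls of Agpat3, Dgat1 and Lpin2 was not tested. Of 8 adipocyte genes 3 were tested. Adipoq was at most 0.447 CPM, Plin1 at most 0.497 CPM and Lep at most 0.199 CPM in any library. Lipe and Cfd were higher, at 28.6 and 34.4 CPM in fasted controls, and Retn, Fabp4 and Slc36a2 are not given singly. Summed levels of the 8 were 51.1 to 105 CPM in fasted control and 48.3 to 89.6 CPM in fasted LKO livers. They were 26.6 to 77.9 CPM in the refed controls and 28.7 to 50.04 CPM in refed LKO livers. Cfd was the adipocyte gene that fell in fasted LKO livers, from 34.4 ± 23.0 to 3.24 ± 4.27 CPM (log2 -3.45, edgeR adjusted p = 0.0182). None of 6 macrophage genes was called in any comparison by edgeR, nor was the 1 skeletal muscle gene of 6 that could be tested. Of 2 enterocyte genes tested, Fabp2, which hepatocytes also express, rose in LKO livers in both states (edgeR adjusted p = 2.96e-04 fasted and 2.23e-04 refed).

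The order of the levels was compared per length of transcript, as CPM per kb of the deposited gene length. In all 4 groups the leading enzyme was Dgat2, followed by Agpat2, Agpat3 and Gpam, and the ranges of Dgat2, Agpat2 and Agpat3 touched neither each other nor that of Gpam. In fasted control livers Dgat2 stood at 277 ± 11.4, Agpat2 at 145 ± 19.9, Agpat3 at 56.0 ± 2.42 and Gpam at 20.9 ± 3.65 CPM per kb (SD, n = 4). Lpin2 at 14.9 ± 6.16 CPM per kb overlapped both Gpam above it and Dgat1 below it, and Dgat1 at 11.8 ± 1.29 CPM per kb was apart from Mogat1. Mogat1 (5.18 ± 2.69), Lpin1 (4.19 ± 3.28) and Lpin3 (1.82 ± 0.16 CPM per kb) overlapped as neighbours in that order, and Mogat2 came last at 0.19 ± 0.19 CPM per kb. Places changed between groups only below Gpam. Dgat1 stood above Lpin2 in refed LKO livers, where their ranges overlapped, and below it in the other groups, apart from it among the refed controls. Lpin1, Lpin3 and Mogat1 also exchanged places.

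At the first step, Gpam (ENSMUSG00000024978, chr19:55055700-55115670, minus strand) encodes the acyltransferase of the mitochondrial outer membrane, the membrane in which the Cpt1a protein also sits. It stood at 119, 166, 154 and 118 CPM in fasted control, 168, 162, 179 and 152 CPM in fasted LKO, 181, 174, 148 and 150.0 CPM in the refed controls and 161, 149, 160 and 165 CPM in refed LKO libraries. The groups overlapped in every comparison. The log2 difference between fasted LKO and fasted control was 0.25 (SE 0.11, 95% interval 0.01 to 0.48, edgeR adjusted p = 0.163) and that between refed LKO and refed control was -0.04 (SE 0.11, 95% interval -0.27 to 0.19, edgeR adjusted p = 0.893). The refeeding difference of Gpam was 0.23 in control (SE 0.11, edgeR adjusted p = 0.176) and -0.06 in LKO livers (SE 0.11, edgeR adjusted p = 0.769).

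Beside the level of Gpam itself, its share in its enzyme family was computed. Gpat4, a glycerol-3-phosphate acyltransferase of the endoplasmic reticulum, was the largest part of the family in 3 groups. Of the level summed per length over Gpam, Gpat2, Gpat3 and Gpat4, Gpam gave 32.1 ± 4.92% in fasted control, 32.8 ± 2.61% in fasted LKO, 38.9 ± 3.76% in the refed controls and 47.8 ± 2.41% in refed LKO livers (SD, n = 4; shares were not tested). Gpat4 gave 59.9%, 56.6%, 52.8% and 43.7% in the same order. Gpat4 itself fell in refed LKO against refed control livers, from 223 ± 31.9 to 146 ± 15.4 CPM (log2 -0.61, SE 0.15, edgeR adjusted p = 0.0361), and on refeeding in LKO livers, from 289.8 ± 57.4 CPM (log2 -0.99, SE 0.15, edgeR adjusted p = 4.42e-04). Gpat3 rose in fasted LKO livers, from 12.4 ± 2.88 to 22.9 ± 3.60 CPM (log2 0.88, SE 0.20, edgeR adjusted p = 0.0103).

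At the lysophosphatidic acid step, the levels of the 2 acyltransferases differed in opposite directions, though edgeR called both in no comparison. Agpat2 (ENSMUSG00000026922, chr2:26483069-26494429 on the minus strand of mm39) encodes an enzyme of the endoplasmic reticulum whose loss causes congenital lipodystrophy, and Agpat3 (ENSMUSG00000001211, chr10:78105012-78188323, minus strand) a relative that also acts in phospholipid remodelling. Their promoter windows, which run from 250 bases before to 50 bases after the annotated start, are shown because of these opposed levels. Both were taken from the RefSeq table for GRCm38.p6, a build other than that of the deposited coordinates, at chr2:26604368-26604667 (minus strand) and chr10:78351651-78351950 (minus strand), and capitals mark the GC box GGGCGG.
Agpat2: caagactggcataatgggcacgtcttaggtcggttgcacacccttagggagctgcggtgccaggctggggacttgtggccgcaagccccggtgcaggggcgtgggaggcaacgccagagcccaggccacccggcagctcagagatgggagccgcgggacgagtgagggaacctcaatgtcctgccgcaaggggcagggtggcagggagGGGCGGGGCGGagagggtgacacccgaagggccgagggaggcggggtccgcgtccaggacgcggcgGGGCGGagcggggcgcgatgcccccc
Agpat3: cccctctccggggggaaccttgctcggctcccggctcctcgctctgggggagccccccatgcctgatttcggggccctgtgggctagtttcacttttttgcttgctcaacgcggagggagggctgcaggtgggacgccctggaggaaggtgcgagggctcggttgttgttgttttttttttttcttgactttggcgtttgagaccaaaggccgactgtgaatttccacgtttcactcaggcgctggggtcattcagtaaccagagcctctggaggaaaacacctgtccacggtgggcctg
The Agpat2 window was 72.0% G or C and held GGGCGG at positions 209, 214 and 275 counted from its 5′ end, the first 2 of them overlapping by 1 base. The Agpat3 window was 59.0% G or C, against a median of 52.7% over the 32851 windows of the table, and held none of the 5 motifs searched on both strands. Those motifs were GGGCGG, in 35.7% of all windows, the E-box CACGTG in 7.2%, the nuclear receptor element AGGTCA in 16.3%, the CCAAT box CCAAT in 37.4% and the TATA box TATAAA in 13.6%. A match is a description of these letters and not a shown site. Windows were found for 7 of the 10 members.

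Agpat2 stood at 268, 278, 344 and 348 CPM in libraries of fasted controls and at 182, 244, 178 and 243 CPM in fasted LKO. After refeeding it stood at 389.7, 434, 319 and 392 CPM in control and at 314, 287, 267 and 229 CPM in LKO libraries. In both feeding states every LKO library lay below every control library. Fasted LKO livers held 68.5% of the control level, and Agpat2 fell by 0.55 on the log2 scale (SE 0.14, 95% interval -0.84 to -0.25, edgeR adjusted p = 0.0173). In the refed state LKO livers held 71.5% of the control level, a log2 difference of -0.48 (SE 0.14, 95% interval -0.78 to -0.19) that missed the threshold (edgeR adjusted p = 0.0613); DESeq2 (adjusted p = 0.0218) and the authors' deposited table (adjusted p = 0.00895) place it below 0.05. The difference between the 2 genotype effects was 0.06 (SE 0.20, edgeR adjusted p = 0.901), with a 95% interval from -0.35 to 0.48.

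The fasted call of Agpat2 held in 7 of 7 alternative settings, with adjusted p from 0.00217 (DESeq2) to 0.0391 (edgeR, compared groups alone). The authors' deposited adjusted p was 0.00394. It held in 12 of 16 edgeR fits with a library left out, and over those 16 the log2 difference ran from -0.63 to -0.47. In the other fits the edgeR adjusted p was 0.0516 without S42, 0.0535 without S43, 0.0593 without S44 and 0.0571 without S46. Of these, S42 and S43 are the highest fasted controls and S44 and S46 the lowest fasted LKO. The refeeding difference of Agpat2 was 0.31 in control (SE 0.14, edgeR adjusted p = 0.141) and 0.37 in LKO livers (SE 0.14, edgeR adjusted p = 0.0744). The latter passed with DESeq2 (adjusted p = 0.0466) and in edgeR without S45 (adjusted p = 0.0441). Agpat2 overlaps Egfl7 on the opposite strand, and whether the counting used strand is not given in the sources used here, so reads of the pair may be shared. Egfl7 was at 22.3 to 38.8 CPM over the 16 libraries, against 178 to 434 CPM for Agpat2, and was called in no comparison (edgeR adjusted p = 0.402 in the fasted and 0.998 in the refed genotype comparison).

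Agpat3 gave the opposite order. Fasted control libraries held 421, 458, 445 and 419 CPM and fasted LKO libraries 524, 467, 554 and 504 CPM, while refed control libraries held 318, 326, 365 and 364 CPM and refed LKO libraries 382, 431, 424 and 402 CPM. The LKO libraries lay above the controls without overlap in both states, and the refed libraries below the fasted ones without overlap in both genotypes. On refeeding Agpat3 fell to 78.7% of the fasted level in control (log2 -0.35, SE 0.08, edgeR adjusted p = 0.00912) and to 80.0% in LKO livers (log2 -0.32, SE 0.08, edgeR adjusted p = 0.0103). Both calls held in all 16 fits that left out 1 library. The genotype differences were 0.23 in the fasted state (SE 0.08, 95% interval 0.06 to 0.40, edgeR adjusted p = 0.0666) and 0.26 in the refed state (SE 0.08, 95% interval 0.09 to 0.43, edgeR adjusted p = 0.0851), and neither passed. The fasted difference passed in 3 of 7 alternative settings: upper quartile scaling (adjusted p = 0.0421), genes under a mean of 5 CPM removed (0.0374) and DESeq2 (0.0214). It missed the threshold with RLE scaling (0.0726), no filter (0.171), limma-voom (0.0568) and the compared groups alone (0.139). Of 16 fits with a library left out, 1 passed, without S45 (0.0438). The refed difference passed in 1 of 7 settings, DESeq2 (0.0146), in 0 of 16 fits with a library left out, and in the authors' deposited table (0.04).

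Per length, Agpat3 ran at 0.39 ± 0.06 of Agpat2 in fasted control and 0.68 ± 0.16 in fasted LKO livers, and at 0.25 ± 0.05 in the refed controls and 0.41 ± 0.06 in refed LKO livers (SD, n = 4; these ratios were not tested). Every fasted LKO library, from 0.52 to 0.85, lay above every library of the other groups, and the refed LKO range of 0.33 to 0.48 overlapped the fasted control range of 0.33 to 0.45. Among the 5 Agpat genes summed per length, Agpat2 gave 68.9% in fasted control, 57.3% in fasted LKO, 77.2% in the refed controls and 67.5% in refed LKO livers, and Agpat3 26.8%, 38.4%, 19.1% and 27.8%. Agpat1, Agpat4 and Agpat5 together made up the small remainder.

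**Figure D3:**
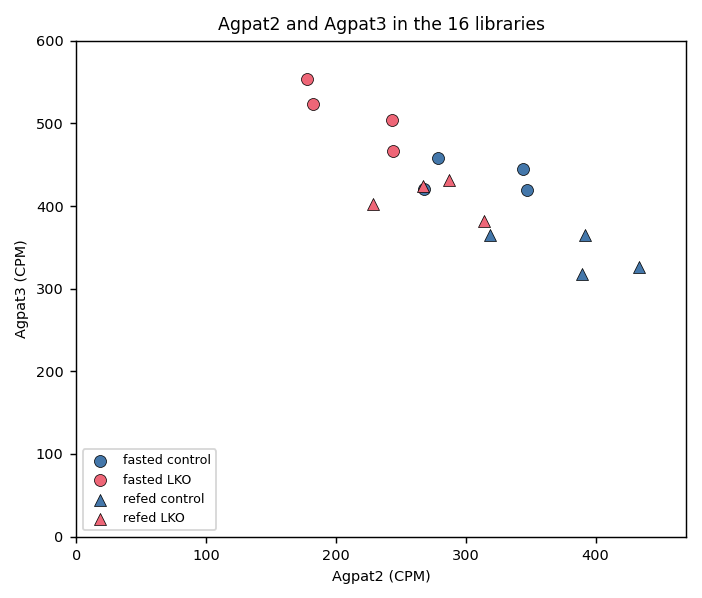
Agpat2 (horizontal axis, CPM) is plotted against Agpat3 (vertical axis, CPM) for each of the 16 libraries, coloured by group. The fasted LKO libraries take the upper left (178 to 244 CPM of Agpat2, 467 to 554 CPM of Agpat3) and the refed controls the lower right (319 to 434 and 318 to 365 CPM).

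Of the lipins, Lpin1 and Lpin2 were marked by their spread. Lpin1 (ENSMUSG00000020593, chr12:16585670-16696967, minus strand), whose product is both a phosphatase and a coactivator in the nucleus, stood at 21.1, 50.7, 83.5 and 11.2 CPM in fasted control and at 9.93, 14.0, 31.4 and 15.3 CPM in fasted LKO libraries. After refeeding it stood at 42.5, 100.3, 22.2 and 22.3 CPM in control and at 19.6, 46.4, 29.4 and 60.3 CPM in LKO libraries. The 4 fasted controls spanned 7.47-fold, and all groups overlapped. The SD of log2 CPM within groups was 0.96 for Lpin1, higher than for 98.6% of the genes tested, whose median was 0.23. That SD was 0.537 for Lpin2 and 0.252 for Lpin3, higher than for 87.3% and 54.3% of the genes tested. The log2 difference of -1.23 between fasted LKO and fasted control livers had an SE of 0.59 and a 95% interval from -2.49 to 0.02 (edgeR adjusted p = 0.195), and was -0.66 without S42, the highest fasted control (edgeR adjusted p = 0.544). The refed difference was -0.26 (SE 0.58, 95% interval -1.48 to 0.95, edgeR adjusted p = 0.859). On refeeding, the difference was 0.17 in control (SE 0.58, edgeR adjusted p = 0.875) and 1.14 in LKO livers (SE 0.59, 95% interval -0.11 to 2.40, edgeR adjusted p = 0.204).

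Lpin2 (ENSMUSG00000024052, chr17:71489555-71556812, plus strand) was the most abundant lipin per length in every group. Its libraries held 164, 219.7, 260.5 and 86.6 CPM in fasted control, 292, 128, 395 and 169 CPM in fasted LKO, 130.01, 128, 159 and 153 CPM in the refed controls and 82.8, 129, 119 and 129.8 CPM in refed LKO livers. The fasted groups were wide, spanning 3.01-fold in control and 3.10-fold in LKO livers, and the refed groups narrower, at 1.25-fold and 1.57-fold. Lpin2 fell on refeeding in LKO livers from 246 ± 122 to 115 ± 22.04 CPM (log2 -1.10, SE 0.32, 95% interval -1.78 to -0.41, edgeR adjusted p = 0.0266), although the lowest fasted LKO library was within the refed range. The call held in 7 of 7 alternative settings, with adjusted p from 0.0143 (DESeq2) to 0.048 (limma-voom), and in 12 of 16 edgeR fits with a library left out. It was lost in edgeR without S44 (adjusted p = 0.0679), S46 (0.104), S52 (0.0858) or S54 (0.0502), of which S44 and S46 are the highest fasted LKO libraries. In control livers the refeeding difference was -0.36 (SE 0.32, 95% interval -1.04 to 0.32, edgeR adjusted p = 0.486). The refeeding effects of the 2 genotypes differed by -0.74 (SE 0.45, edgeR adjusted p = 0.437), so a response particular to LKO livers was not shown. The genotype difference of Lpin2 was 0.43 among fasted livers (SE 0.32, edgeR adjusted p = 0.426) and -0.31 among refed livers (SE 0.32, edgeR adjusted p = 0.668).

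Lpin3 (ENSMUSG00000027412, chr2:160722590-160747922, plus strand), another phosphatidic acid phosphatase of the family, ran between 3.98 and 7.97 CPM over all libraries and was not called. Its log2 differences were -0.02 (fasted) and 0.20 (refed) between genotypes, and -0.36 (control) and -0.14 (LKO) on refeeding, with edgeR adjusted p-values of 0.956, 0.606, 0.188 and 0.643. Lpin1 supplied 17.7 ± 7.30% of the lipin level summed per length in fasted control and 7.88 ± 2.85% in fasted LKO livers, with ranges of 11.1 to 26.7% and 3.74 to 10.2% that did not overlap. In the refed groups the share of Lpin1 was 24.99 ± 15.7% in control and 25.2 ± 6.53% in LKO livers. These shares were not tested.

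At the last step, Dgat2 (ENSMUSG00000030747, chr7:98802865-98831926, minus strand) and Dgat1 (ENSMUSG00000022555, chr15:76386215-76396153, minus strand) encode enzymes that catalyse the same reaction but belong to unrelated protein families. Dgat2 stood at 862, 899, 834 and 819.9 CPM in fasted control libraries and at 444, 623, 498 and 448 CPM in fasted LKO. In refed control libraries it stood at 855, 919, 713 and 902 CPM, and in refed LKO at 638, 702, 768 and 674 CPM. All 4 fasted LKO libraries lay below every other library, and the refed groups overlapped through the lowest control and the highest LKO library.

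Dgat2 fell in fasted LKO livers to 58.9% of control (log2 -0.76, SE 0.11, 95% interval -1.001 to -0.52, edgeR adjusted p = 6.57e-04), and the call held without each of the 16 libraries in turn (highest adjusted p = 0.00296). The refed genotype difference was -0.28 (SE 0.11, 95% interval -0.52 to -0.05, edgeR adjusted p = 0.176). On refeeding Dgat2 rose to 138% of the fasted level in LKO livers (log2 0.47, SE 0.11, edgeR adjusted p = 0.00861), and this call too held in all 16 such fits. In control livers the refed level was 99.2% of the fasted level (log2 -0.01, 95% interval -0.25 to 0.23, edgeR adjusted p = 0.961). The genotype effect was 0.48 higher after refeeding than in the fast (SE 0.16, 95% interval 0.14 to 0.81, unadjusted p = 0.0080), which missed the threshold over all genes (edgeR adjusted p = 0.149). Without S45, the fasted LKO library with the highest Dgat2, that adjusted p was 0.045. This was the 1 fit of 16 with a library left out that passed, and the highest edgeR adjusted p was 0.268, without S50. Of 6 alternative settings, DESeq2 and limma-voom among them, 0 passed (adjusted p = 0.0632 to 0.217).

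Dgat1 was called on refeeding in both genotypes. It stood at 37.8, 30.3, 37.2 and 39.1 CPM in fasted control, 38.3, 40.2, 42.3 and 38.7 CPM in fasted LKO, 29.1, 30.2, 28.4 and 30.2 CPM in the refed controls and 32.3, 29.8, 32.0 and 31.1 CPM in refed LKO libraries. The refed libraries of each genotype lay below its fasted ones, in controls only just, since the fasted control S41 at 30.3 CPM stood beside refed libraries at 30.2 CPM. Dgat1 fell on refeeding to 81.6% of the fasted level in control (log2 -0.29, SE 0.08, edgeR adjusted p = 0.0174) and to 78.6% in LKO livers (log2 -0.35, SE 0.08, edgeR adjusted p = 0.00501). The fall in LKO livers was called in all 16 fits with a library left out. That in controls was lost without S40 (adjusted p = 0.058), S43 (0.0607) or S50 (0.0551) and in a fit of the 2 control groups alone (0.054). The genotype differences were 0.14 in the fasted state (95% interval -0.02 to 0.30, edgeR adjusted p = 0.252) and 0.09 in the refed state (95% interval -0.08 to 0.25, edgeR adjusted p = 0.596).

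Per length, the level of Dgat2 was 23.7 ± 3.84 times that of Dgat1 in fasted control, 12.5 ± 1.91 times in fasted LKO, 28.4 ± 2.40 times in the refed controls and 22.04 ± 1.92 times in refed LKO livers (SD, n = 4). The fasted LKO range of 11.5 to 15.4 lay below those of the other 3 groups. Dgat1 supplied 7.50 ± 0.93% of the summed Dgat level in fasted LKO livers and between 3.41% and 4.36% on average in the other groups.

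**Figure D4:**
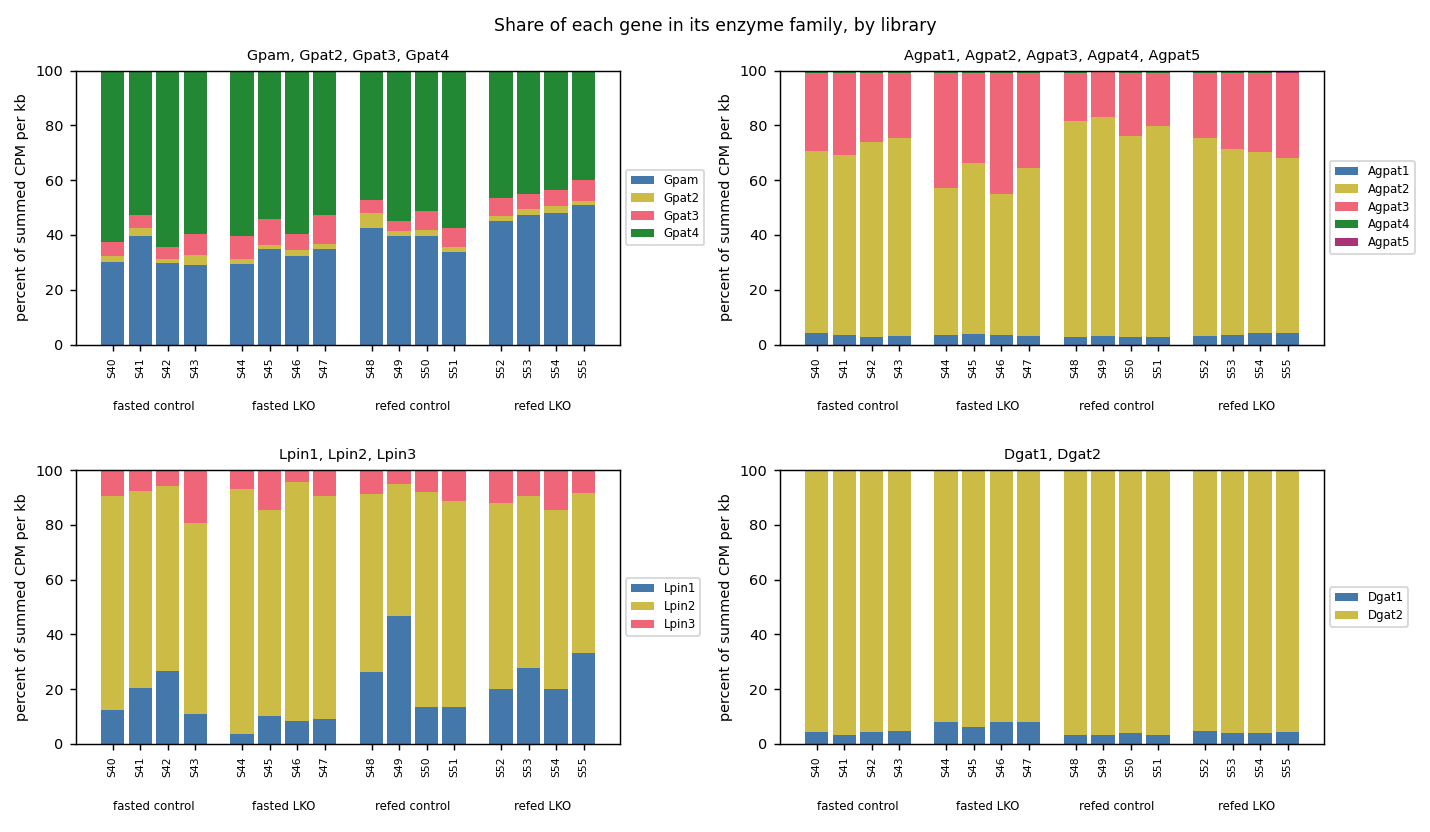
Stacked bars give, for each of the 16 libraries, the percent of its family's summed CPM per kb that each gene took, in 4 panels for Gpam and its Gpat relatives, the Agpat genes, the lipins and the Dgat pair (vertical axes, 0 to 100%). Gpam reached 45.1 to 50.9% of its family in refed LKO livers, Agpat3 32.8 to 43.9% in fasted LKO livers, and Dgat1 at most 8.01% in any library.

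The monoacylglycerol acyltransferases were low. Mogat1 (ENSMUSG00000012187, chr1:78487628-78514810, plus strand) stood at 5.56, 3.97, 9.42 and 13.3 CPM in fasted control, 1.80, 4.47, 2.13 and 10.9 CPM in fasted LKO, 5.75, 1.75, 2.75 and 9.64 CPM in the refed controls and 2.40, 2.09, 5.81 and 2.38 CPM in refed LKO libraries. The groups overlapped throughout, and the log2 differences between genotypes were -0.75 in the fasted (SE 0.58, 95% interval -1.97 to 0.47, edgeR adjusted p = 0.441) and -0.63 in the refed state (SE 0.60, 95% interval -1.91 to 0.65, edgeR adjusted p = 0.635). Without S47, the highest fasted LKO library, the fasted difference of Mogat1 was -1.53 (edgeR adjusted p = 0.0927). Over the 16 fits with a library left out that difference ran from -1.53 to -0.40. The highest edgeR adjusted p among them was 0.746, without S43, the highest fasted control. Its refeeding differences were -0.72 in control and -0.60 in LKO livers (SE 0.58 and 0.60, edgeR adjusted p = 0.431 and 0.544). Mogat2 (ENSMUSG00000052396, chr7:98868291-98887826, minus strand), a close neighbour of Dgat2 in the genome, had 17, 1, 3 and 5 counts in fasted control, 9, 9, 7 and 17 counts in fasted LKO, 1, 3, 3 and 7 counts in the refed controls and 9, 3, 12 and 10 counts in refed LKO libraries. Such counts allow no statement on genotype, and without the filter on low counts its edgeR adjusted p-values were 0.589 in the fasted and 0.490 in the refed genotype comparison. Of the markers listed for enterocytes, the cells in which Mogat2 is best known, Lct was at most 0.106 CPM, Alpi at most 0.327 CPM and Vil1 at most 1.65 CPM in any library. The summed level of the 5 listed genes found, Fabp2 among them, was 181 to 187 CPM in fasted control libraries. It was 263 to 336 CPM in fasted LKO, 155 to 173 CPM in refed control and 261 to 332 CPM in refed LKO libraries. Lct, Alpi and Vil1 add little to these sums, which come mostly from the other listed genes, among them Fabp2, which hepatocytes also express.

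Other genes of glycerolipid synthesis were taken from a list of 28, of which 27 were tested. In fasted LKO against control livers 3 were higher and 1 lower, where 12.2% of all genes were called. Gk, the glycerol kinase that makes glycerol-3-phosphate, rose from 89.9 ± 15.0 to 233 ± 53.9 CPM (log2 1.37, SE 0.16, edgeR adjusted p = 2.38e-04), Gpat3 rose as given above, and Lclat1, an acyltransferase of cardiolipin and phosphatidylinositol remodelling, rose from 34.6 ± 2.55 to 46.3 ± 2.702 CPM (log2 0.42, SE 0.08, edgeR adjusted p = 0.00329). Pemt, which methylates phosphatidylethanolamine to phosphatidylcholine, fell from 318 ± 7.40 to 231 ± 39.8 CPM (log2 -0.46, SE 0.11, edgeR adjusted p = 0.0140). Refed LKO livers had 1 higher, the phosphatidic acid phosphatase Plpp2 (18.7 ± 5.79 to 29.9 ± 3.56 CPM, log2 0.68, edgeR adjusted p = 0.0398), and 1 lower, Gpat4, where 3.63% of all genes were called. The list's median log2 fold change was 0.13 in the fasted and -0.05 in the refed genotype comparison.

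Refeeding called 5 of these 27 genes in control livers, 2 higher and 3 lower, and 7 in LKO livers, 2 higher and 5 lower. Over all genes tested the called shares were 15.4% and 18.1%. Pcyt1a, the rate-limiting enzyme of phosphatidylcholine synthesis (log2 0.48), and Selenoi, an ethanolamine phosphotransferase (log2 0.37), rose in control livers. Plpp2 (-0.82), Cds2 (-0.33), which turns phosphatidic acid toward phosphatidylinositol, and Ctdnep1 (-0.24), the phosphatase that acts on lipins, fell there. In LKO livers Pemt (0.40) and Agpat5 (0.31) rose, and Gpat3 (-1.03), Gpat4 (-0.99), Gk (-0.62), Cds2 (-0.52) and Cept1 (-0.42), a choline and ethanolamine phosphotransferase, fell. Cds2 was the 1 gene of the list called in both genotypes. None of the 27 was called for an unequal genotype effect in fasted and refed livers by edgeR, and 9 had an unadjusted p under 0.05 (33.3%, against 16.5% of all genes).

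For the 3 members with the strongest evidence of any difference between the 4 groups, Dgat2, Agpat3 and Dgat1, the most similar genes were sought among 8876 by Pearson's r of log2 CPM over the 16 libraries, which share their groups, so that r reflects group means as well as single livers. Dgat2 was most like Aatk (0.947), Gulo (0.932) and Ogfrl1 (0.925). Agpat3 was most like Acot8 (0.95), which encodes a peroxisomal acyl-CoA thioesterase, Ifngr2 (0.948) and Sun2 (0.946), and Dgat1 was most like Flvcr2 (0.934), Fam13a (0.904) and Pex16 (0.891), a peroxisome biogenesis gene. No other member was among these.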

How the data were processed

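Poly-A RNA from 16 livers was sequenced, and reads were aligned to mm39 with HISAT2 2.0.5, per the submitters' processing notes. The counting tool, its annotation and its use of strand are not given in the sources used here. The authors deposited 4 tables, 1 for each pair of groups, with 8 libraries in each. Values used were the deposited raw counts per gene, the authors' log2 fold changes and adjusted p-values, and the deposited gene lengths in bases, an other unit used for levels per kb. Another 64 per-library columns were left out. Count columns (S40 to S55) carry no sample title, and the group heading shared by the tables gave each its group: fasted livers are S40 to S43 (control) and S44 to S47 (LKO), and refed livers S48 to S51 (control) and S52 to S55 (LKO). Joined on gene identifier, 0 counts differed between tables, and 3148 genes absent from a library's tables were set to 0 there.

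The tests used edgeR 4.0.16 in R 4.3.3: filterByExpr left 14488 genes, TMM factors ran from 0.941 to 1.07, and quasi-likelihood tests of 5 contrasts came from 1 fit of the 4 groups (biological coefficient of variation 0.185) with Benjamini-Hochberg adjustment over all genes tested. The SE is the log2 fold change divided by the square root of F. CPM use TMM-scaled totals, and log2 CPM for likeness a prior count of 2. Alternatives were RLE and upper quartile scaling, no filter, a mean of 5 CPM, DESeq2 1.42.0, limma-voom (limma 3.58.1), the compared groups alone and each of 16 libraries left out. The fit was tested on simulated counts. Genes named are the members, Cpt1a, the list of 28 other glycerolipid genes, the marker lists (adipocyte, hepatocyte, macrophage, enterocyte, skeletal muscle), and the 3 genes most like each of the 3 members with the smallest p over the 4 groups; Egfl7 was added for its overlap with Agpat2, outside that rule. Members and lists were chosen with earlier results of these data known.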

Additional observations from a re-analysis of the deposited data

Results flagged for a closer look

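Each member's 4 libraries in each of the 4 groups were examined for a library far from the other 3, which gave 40 sets of 4. In 1 of them, Mogat1 in refed LKO livers, library S54 stood at 5.81 CPM while the other 3 stood at 2.09 to 2.40 CPM. Chance alone marks about 1 such set in 20. Without S54 the refed genotype difference of Mogat1 was -1.08 on the log2 scale and remained uncalled by edgeR (adjusted p = 0.439).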

How the results depend on the processing

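No paired analysis was possible because the count columns carry no replicate number and cannot be matched to the numbered sample titles. Of 1026 values of members recomputed under alternatives, 978 kept direction and side of the threshold, 9 gained a call, 12 lost one and 27 changed sign. All 27 came from leaving out 1 library and none was a called value. These ranges, with that of Cpt1a, over the 16 such fits were -0.0945 to 0.0205 for Lpin3 between fasted groups, -0.0855 to 0.012 for Gpam and -0.56 to 0.43 for Lpin1 between refed groups, -0.52 to 0.76 for Lpin1, -0.053 to 0.0631 for Dgat2 and -0.27 to 0.0449 for Cpt1a on refeeding in control livers, and -1.05 to 0.18 for Mogat1 on refeeding in LKO livers. For the difference of genotype effects they were -0.017 to 0.15 for Agpat2, -0.0111 to 0.063 for Agpat3, -0.0932 to 0.0215 for Dgat1 and -0.32 to 0.90 for Mogat1.

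Genes called between fasted genotypes numbered 1772 (1048 to 1985 with 1 library left out), between refed genotypes 526 (901 with DESeq2; 197 to 601), on refeeding in controls 2238 (1220 to 2483) and in LKO 2616 (1795 to 2730), and for the difference of genotype effects 78 (195 at a mean of 5 CPM, 469 with DESeq2; 8 to 282). Of those 78, 45 were higher and 33 lower, against 43 and 65 with upper quartile scaling. Members called numbered 2 between fasted genotypes (1 to 3), 0 between refed genotypes (2 with DESeq2), 2 on refeeding in controls (1 with the control groups alone; 1 to 2), 4 in LKO (3 to 5) and 0 for the difference of genotype effects (0 to 1). The cause of these changes was not tested. With 4 libraries a group, the spread of Lpin1 and Mogat1 limits what could be seen, and Mogat2 had too few counts for a statement.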

Other observations

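Values of Lpin1, Agpat2 and Mogat1 were set beside other genes after they had been seen, so these are descriptions over 16 libraries that share 4 groups. Lpin1 was most like Il6ra (Pearson's r of log2 CPM 0.925), Slc39a14 (0.875) and Pfkfb3 (0.857). As deviations from the group means, the genes most like Lpin1 were Pstpip2 (r = 0.942), Il6ra (0.923) and Slc39a14 (0.875), so the likeness to Il6ra and Slc39a14 was present between livers of the same group. Agpat2 was most like Ghr, the growth hormone receptor (0.928), Arhgap26 (0.924) and Car3 (0.923), and its r with Agpat3 was -0.852, or -0.536 as deviations from the group means. Mogat1 was most like Fam126a (0.891). Its r with Cfd of the adipocyte list was 0.816, or 0.873 as deviations from the group means, and the part of Cfd-expressing cells in the spread of Mogat1 was not tested. Within-group SDs of log2 CPM placed Agpat3 (0.089) and Dgat1 (0.095) among the steadiest genes, above 3.63% and 4.96% of those tested, and Mogat1 (0.93) above 98.4%.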
